A study of Lachancea waltii with 4 samples.

Results

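In the budding yeast Kluyveromyces waltii (now Lachancea waltii), 164 of 5193 genes had 2 separate array probes whose readings of the same gene differed by more than 2-fold. These genes, called members below, were chosen by measured values. For each probe the background-subtracted median RNA signal was divided by the background-subtracted median genomic DNA signal, the log2 was taken, the array median over probes was subtracted and the 4 arrays were averaged. A gene could be a member if its probes overlapped end to start by fewer than 5 bases, the scanner software flagged neither as an outlier on an array, and both were well above background in both channels on every array. It was a member if the values of its probes then differed by more than 1 on the log2 scale. Of the 5193 genes, 3443 had separate probes, 173 of these were removed by the outlier filter and a further 73 by the background filter, and 3197 were eligible. The 164 members were 5.13% of the eligible genes, a share fixed by the rule, and all other gap values below describe the members and test nothing. The filters also removed 21 genes with separate probes and a gap over 1, 12 as outliers and 9 as dim.

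All 4 samples form 1 group, strain NCYC 2644 in rich medium at mid-log phase, with no treatment, mutant or control. Total RNA labelled with the dye Cy3 was hybridised against Cy5-labelled DNA from its own genome, on a custom array whose probes are 55 bases long. The labels number the RNA samples 1 to 4 and the methods of the study call the samples biological replicates, each set against a reference genomic DNA sample, so the standard deviation (SD) over arrays given below is the spread between these 4 hybridisations. All arrays lay on 1 slide and were scanned on 1 day. Over gene probes, the RNA signal had a median of 1191 to 1713.5 units and the genomic DNA signal of 7917 to 9640 units on the 4 arrays, and the number of arrays limits the precision.

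An oligonucleotide probe reports the abundance of a transcript only through the piece of it that pairs with the probe, and probes differ in how strongly they bind any target. Genomic DNA holds every single-copy gene in the same amount, so that dividing by its signal is used to remove differences in binding strength. In yeasts a gene can give transcripts with different ends, transcripts of neighbours can overlap and related genes can share sequence, and a probe reads whatever pairs with it. Genes are known here by identifier alone, without names or functions, and the roles of the members are therefore not given.

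The members lay just over the limit far more often than they lay far from it. The gap between the higher and the lower probe had a median of 1.22, a range of 1.001 to 3.72, and lay over 1.5 in 36 members and over 2 in 8. The median gap of the members was 1.21, 1.20, 1.29 and 1.25 on arrays 1 to 4, against 0.32, 0.31, 0.33 and 0.31 over all eligible genes. In all 164 members the same probe was higher on every array, against 69.6% of all eligible genes. The gap exceeded 1 on each array in 92 members (56.1%), against 2.88% of all eligible genes. Both counts follow largely from the choice of wide gaps. The values of the higher probe stayed above those of the lower probe over all arrays in 162 members (98.8%), against 51.5% of all eligible genes. The exceptions, named after their values were seen, were Kwal_33.15434, with a gap of 1.095 ± 0.18, and Kwal_27.10664, with a gap of 1.05 ± 0.19 (SD, n = 4). In both genes the probes moved together from array to array. Kwal_33.15434 read 0.87, -0.30, 0.59 and -0.16 with its higher probe and -0.12, -1.25, -0.52 and -1.50 with its lower probe on arrays 1 to 4.

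The members just inside the limit were Kwal_56.24552 at 1.001, Kwal_33.13585 at 1.002 and Kwal_23.6073 at 1.003. The eligible genes just outside it were Kwal_14.2499 at 0.999, Kwal_23.4695 at 0.994 and Kwal_26.9141 at 0.993. The SD of these gaps over arrays was 0.06 to 0.29 in these 6 genes, wider than the differences between them. Over all members the SD of the gap had a median of 0.18, and over all eligible genes 0.16.

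The widest gap belonged to Kwal_26.7406. Its higher probe read -0.46, -0.28, -0.25 and -0.37 and its lower probe -3.70, -3.81, -4.21 and -4.52 on arrays 1 to 4, a gap of 3.72 ± 0.41 (SD, n = 4) or 13.2-fold. The readings of the probes were far apart on every array, and the lower probe spread more between arrays than the higher one. The RNA signal was 3678 to 7236.5 units at the higher probe and 381 to 643.5 units at the lower probe, while the genomic DNA signal of both was high, at 33229 to 48891 units and 45823 to 54054.5 units. Kwal_14.761 had the next widest gap, 3.32 ± 0.29 (SD, n = 4) or 9.99-fold. Its higher probe read -1.50, -1.34, -1.29 and -1.32 and its lower probe -4.40, -4.78, -4.86 and -4.70. The lower probes of these 2 genes hold a stretch of 33 bases in common, and these lower probes had genomic DNA signals 5.63-fold (Kwal_26.7406) and 2.61-fold (Kwal_14.761) that of the median probe. The part of this stretch in the gaps was not tested, and the higher probe of Kwal_14.761 also shares bases with probes of 3 other genes, up to 43 in a row.

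**Figure D1:**
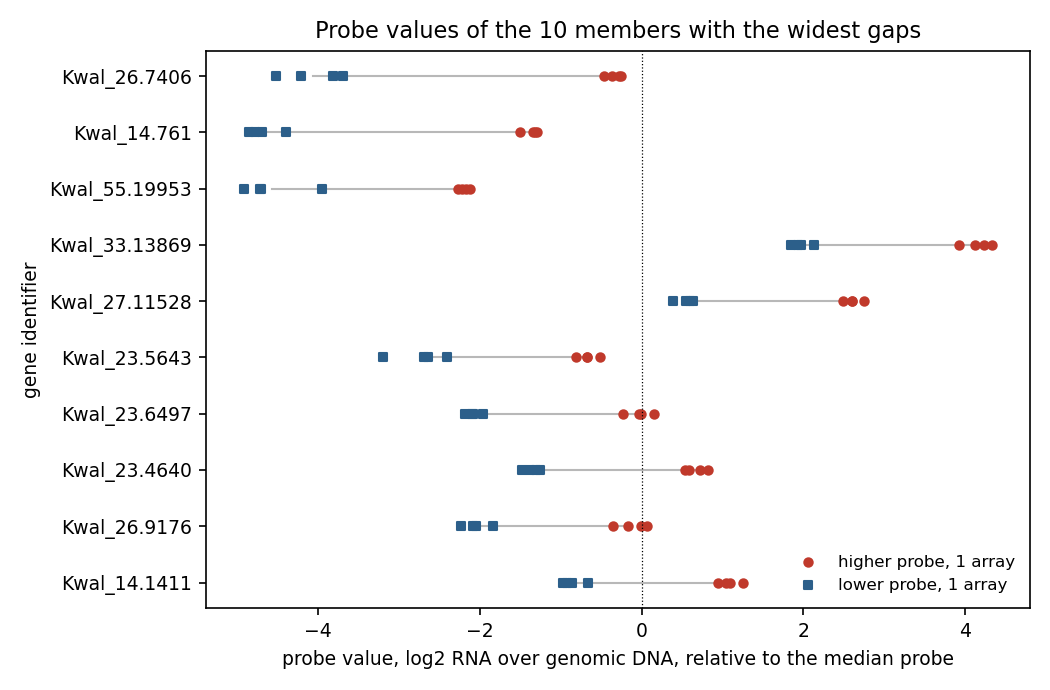
Values of the higher probe (red circles) and the lower probe (blue squares) on each of the 4 arrays for the 10 members with the widest gaps, as log2 of RNA over genomic DNA relative to the median probe on the x axis, with 1 gene per line. The grey line joins the means. The values of the higher and the lower probe overlap in none of these genes, and the gaps run from 1.93 in Kwal_14.1411 to 3.72 in Kwal_26.7406.

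The other 8 of the 10 widest gaps lay between 1.93 and 2.38, from low to high genes. Kwal_55.19953 read -2.28, -2.16, -2.12 and -2.22 with its higher probe and -4.92, -3.96, -4.71 and -4.72 with its lower probe, a gap of 2.38 ± 0.40 (SD, n = 4) that turned slightly negative after loess within arrays. The lower probe had an RNA signal of only 53 to 153.5 units, and array 2 gave its highest reading. Kwal_33.13869 stood at the other end of the range, with 4.24, 3.93, 4.34 and 4.13 at the higher probe and 1.93, 1.97, 2.13 and 1.85 at the lower probe. Both of its probes read above the median probe on every array, and they placed the gene 4.56-fold apart. Kwal_27.11528 had a gap of 2.07 ± 0.16, Kwal_23.5643 of 2.06 ± 0.35 (also just below 0 after loess), Kwal_23.6497 of 2.05 ± 0.14 and Kwal_23.4640 of 2.03 ± 0.15. Kwal_26.9176, at 1.94 ± 0.22, was alone among the 10 in having its second-numbered probe higher, and Kwal_14.1411 stood at 1.93 ± 0.06 (SD, n = 4 for each of these 6 genes).

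The spread of a gap over arrays was largest in Kwal_55.21143, where the higher probe read -0.31, 0.03, -0.76 and -0.20 and the lower probe -2.06, -2.29, -1.61 and -2.16. Its gap was 1.72 ± 0.62 (SD, n = 4), narrowest on array 3 and widest on array 2. It was followed by Kwal_8.596 at 1.56 ± 0.47 and by Kwal_26.7406. The smallest spreads belonged to Kwal_27.10384 at 1.55 ± 0.03 (negative after loess), Kwal_55.20674 at 1.12 ± 0.04 and Kwal_27.12832 at 1.45 ± 0.05. In Kwal_55.20674 the higher probe read 1.98, 1.39, 2.12 and 1.42 and the lower probe 0.87, 0.21, 1.01 and 0.34, so that both probes were higher on arrays 1 and 3 while the distance between them hardly moved.

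The ratio of RNA to genomic DNA can differ between probes through either channel, and the gap is the RNA difference minus the genomic DNA difference. Because the higher probe is defined by the ratio, a positive RNA difference and a negative genomic DNA difference are built into the choice, and these values are a description. The RNA signal of the members was higher at the higher probe by a median of 0.77, with a range of -1.31 to 4.88, and the genomic DNA signal was lower there by a median of -0.49, with a range of -2.51 to 3.48. Over all eligible genes the medians were 0.18 and -0.17. Averaged over arrays, the median RNA signal of members was 1687 units at the higher and 942.8 units at the lower probe, against 1496 and 1295 units over all eligible genes. The median genomic DNA signal of members was 7767 units at the higher and 10716 units at the lower probe, against 8248 and 9324 units over all eligible genes. The RNA difference exceeded 1 on its own in 62 members (37.8%), against 5.44% of all eligible genes. In 50 of these members (30.5% of all members) the genomic DNA difference was within 0.5 of 0, against 2.53% of all eligible genes. In 79 members (48.2%) neither channel alone differed by more than 1, against 90.8% of all eligible genes. The RNA difference was larger than the opposite of the genomic DNA difference in 102 members (62.2%), against 51.0% of all eligible genes.

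**Figure D2:**
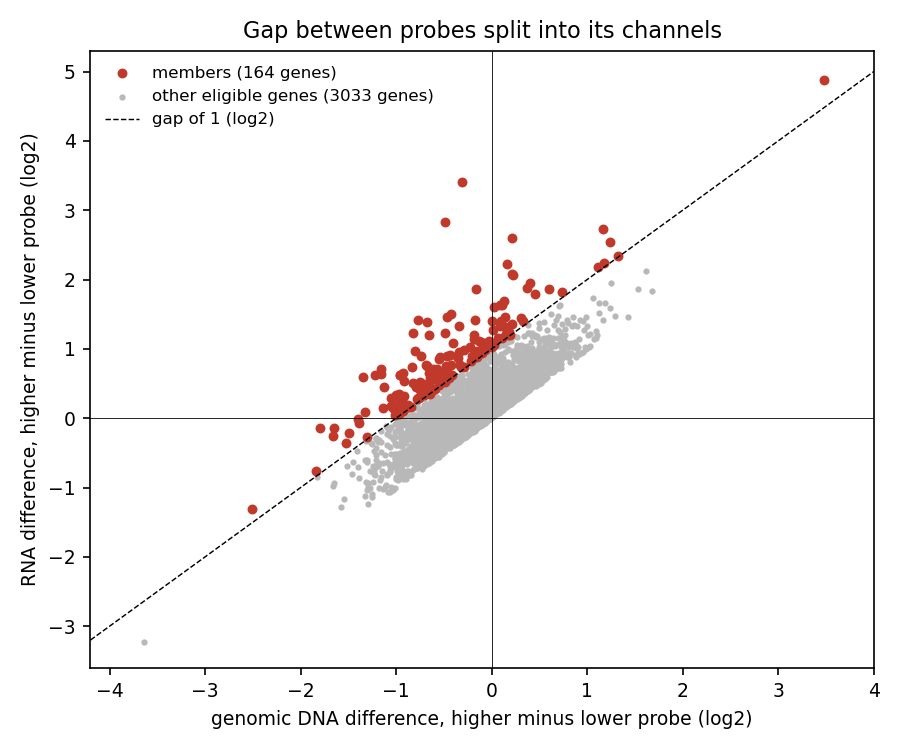
RNA difference (y axis) against genomic DNA difference (x axis), each as higher minus lower probe on the log2 scale and averaged over 4 arrays, for 164 members (red) and 3033 other eligible genes (grey). The dashed line marks a gap of 1, which divides the sets by the rule. The members stretch along this line from Kwal_14.1915 at the lower left (RNA -1.31, genomic DNA -2.51) to Kwal_27.11215 at the upper right (RNA 4.88, genomic DNA 3.48).

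In some members the gap lay in the genomic DNA channel, and the RNA channel ran against it or differed by less than its SD. In Kwal_14.1915 the higher probe had less RNA signal than the lower probe, 160 to 247 units against 426 to 563 units, but its genomic DNA signal was 3325 to 4535 units against 19460.5 to 23538.5 units. With RNA alone the order of its probes was therefore opposite, by -1.31 ± 0.10 (SD, n = 4). Kwal_56.22583 had a genomic DNA difference of -1.84 ± 0.09 and an RNA difference of -0.76 ± 0.29. In Kwal_34.16200 these were -1.80 ± 0.18 and -0.15 ± 0.37, and in Kwal_23.3268 -1.66 ± 0.02 and -0.25 ± 0.17 (SD, n = 4 for each). The RNA difference lay below 0 in 10 members (6.10%), a smaller share than the 34.6% of all eligible genes. The genomic DNA difference lay below -1 in 23 members (14.02%), against 3.75% of all eligible genes.

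In 6 members (3.66%), against 0.813% of all eligible genes, the genomic DNA difference exceeded 1 in the other direction. In these members division by genomic DNA narrowed a wider difference in RNA. Kwal_27.11215 was the extreme, with RNA signals of 2777 to 6610 units at the higher probe and 119 to 157 units at the lower probe, a 29.4-fold difference. Its genomic DNA signal was 32909 to 45847.5 units at the higher probe and 2963 to 3807.5 units at the lower probe. The ratio gave -0.85, -0.32, -0.60 and -0.81 at the higher probe and -1.93, -2.27, -1.89 and -2.07 at the lower probe. Its lower probe shares bases with probes of 4 other genes, up to 25 in a row, and read less genomic DNA than the median probe. Its higher probe shares 16 bases in a row with a probe of Kwal_47.19348 and read 4.27-fold the genomic DNA signal of the median probe. The part of these stretches was not tested. Kwal_23.4610, Kwal_23.6014 and Kwal_26.9328 had genomic DNA differences of 1.32 ± 0.12, 1.24 ± 0.08 and 1.17 ± 0.08 and RNA differences of 2.34 ± 0.16, 2.54 ± 0.24 and 2.24 ± 0.22 (SD, n = 4 for each). The remaining 2, named after their values were seen, were Kwal_47.17664 with a genomic DNA difference of 1.17 and Kwal_5.492 with 1.11. The lower probe of Kwal_23.4610 is identical over all 55 bases to a probe of Kwal_47.19304, and that of Kwal_47.17664 shares 27 bases in a row with a probe of Kwal_12.670. The gaps of all 6 members changed sign with the log ratio of the scanner software and after loess.

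The probes of a gene carry consecutive numbers in the array design, and the number was not part of the rule. The first-numbered probe was the higher one in 125 of 164 members (76.2%), on each of the 4 arrays, against 1841 of 3197 eligible genes (57.6%). The share was larger at wider gaps. It was 52.6% among 1362 eligible genes with a gap of up to 0.25, 63.3% among 480 genes between 0.5 and 0.75, 74.2% among 128 members between 1 and 1.5 and 78.6% among 28 members between 1.5 and 2. In the 8 members with a gap over 2 it was the first-numbered probe each time. No test was run on these shares, since genes on 1 set of arrays are not replicates.

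**Figure D3:**
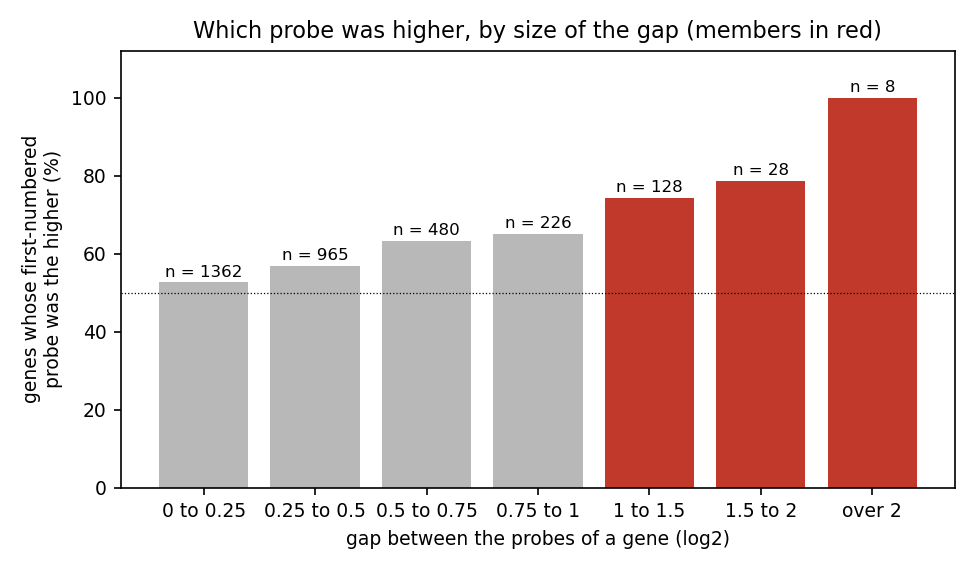
Share of eligible genes whose first-numbered probe was the higher one (y axis, percent) by the size of the gap between the probes (x axis, log2), with members in red and other eligible genes in grey; n is the number of genes and the dotted line marks equal shares. The bars climb from 52.6% to 100%, the last over 8 genes.

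Where the probes of a gene overlap, their order along the gene can be read from the sequences, and the first-numbered probe lay downstream, towards the 3' end, in 1738 of 1750 such genes (99.3%). For members the order cannot be read in this way. Another mark of position was the presence of the stop codons TAA, TAG or TGA in all reading frames of a probe, which a probe inside an uninterrupted coding sequence cannot have on the coding strand. Of all genes, 754 first-numbered probes lacked an open frame, against 12 second-numbered probes. Among members this held for 26 first-numbered probes (15.9%) and 0 second-numbered ones, and in 22 of the 26 genes the probe without an open frame was the higher. Among eligible genes the first-numbered probe lacked an open frame in 608 (19.0%) and was the higher in 376 of them (61.8%). With the 26 genes set aside, the first-numbered probe was the higher in 103 of 138 members (74.6%), against 1465 of 2589 eligible genes (56.6%). In overlapping pairs that passed the same filters, 15 of 1615 (0.929%) had a gap over 1 and the first-numbered probe was the higher in 50.8%.

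The higher probe of members was on average the richer in the purines A and G, while GC content had nearly the same distribution in both probes. The higher probe was the more GC-rich in 50 members (30.5%), the less GC-rich in 56 (34.1%) and equal in 58, against 27.5%, 33.8% and 38.7% of all eligible genes, and the median was 43.6% GC for both probes. The higher probe held on average 1.08 more A, 1.35 more G, 1.53 fewer C and 0.902 fewer T than the lower probe, as the sequences are listed in the array design. Over all eligible genes these differences were 0.428 more A, 0.430 more G, 0.595 fewer C and 0.263 fewer T. The higher probe had more purines in 99 members (60.4%) and fewer in 51, against 51.4% and 41.1% of all eligible genes. Where the first-numbered probe had over 10 more purines than the second, 17 of 124 eligible genes (13.7%) were members, and the first-numbered probe was the higher in 16 of these. In the other classes of purine difference the members made up 2.80% to 5.58%. Where the second-numbered probe was richer by over 10 purines, 3 of 66 eligible genes (4.55%) were members, with the first-numbered probe higher in 2. The first-numbered probe was also the higher in 7 of 10 members where the second was richer by over 5 and up to 10. With the second richer by over 1 and up to 5, this held in 22 of 33. Which part belongs to purines and which to probe number was not tested.

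**Figure D4:**
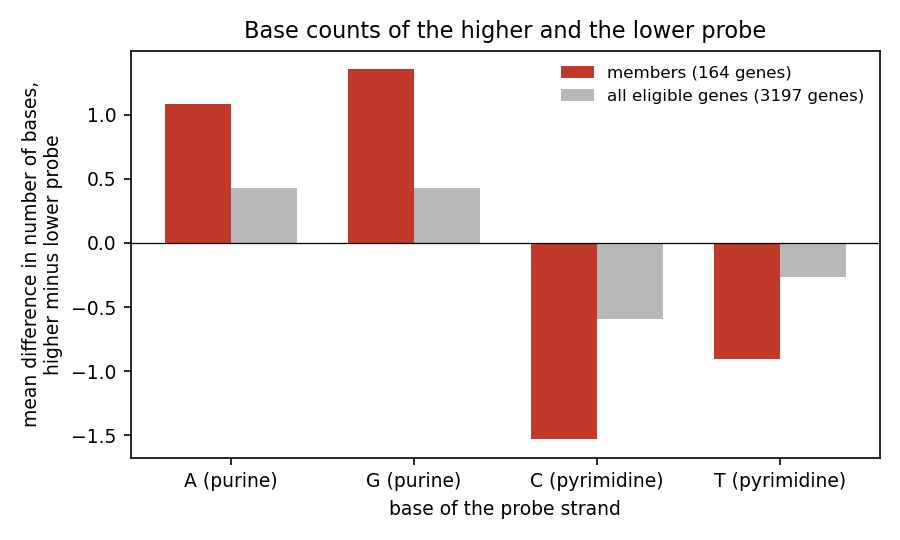
Mean difference in the number of each base between the higher and the lower probe (y axis, higher minus lower, of 55 bases) for 164 members (red) and all 3197 eligible genes (grey). A and G are positive and C and T negative in both sets, and each is farther from 0 in members.

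Other features of the probe sequence were compared in the same way. The longest run of 1 base was longer in the higher probe in 78 members (47.6%) and shorter in 33 (20.1%), against 41.4% and 27.1% of all eligible genes. The predicted folding of the higher probe was the more stable in 109 members (66.5%), against 53.8% of all eligible genes, with median energies of -3.3 kcal/mol for the higher and -2.3 kcal/mol for the lower probe of members. The computed melting temperature was higher for the higher probe in 92 members (56.1%), against 50.2%. A stretch of 16 or more bases shared on the same strand with a probe of another gene occurred in at least 1 probe of 12 members (7.32%), against 4.54% of all eligible genes. Among these, Kwal_22.2752 and Kwal_9.616 each had a probe pair with high genomic DNA signals, 2.87-fold and 3.25-fold that of the median probe at the higher and lower probe of Kwal_22.2752 and 4.51-fold and 4.55-fold in Kwal_9.616. Their gaps, 1.07 in both, lay mostly in the RNA channel, at 0.89 and 1.05. Both probes of Kwal_22.2752 are identical over all 55 bases to probes of Kwal_55.22252, and the higher probe of Kwal_9.616 to a probe of Kwal_1.407. On the opposite strand a stretch of 16 or more bases, up to 47, was shared by the higher probe of 3 members (1.83%). The lower probe of 1 member (0.610%) also shared such a stretch, against 0.782% of all eligible genes for either probe. In no member did the 2 probes of the gene share a stretch of 12 bases with each other, on either strand. Such stretches were rare among all 3197 eligible genes too, in 8 on the same strand and 1 on the opposite strand. Nothing is therefore read from their absence in members.

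A gene's level is usually read from the median over its probes, and for members it falls between readings that differ. Levels relative to the median gene had a median of -0.28 in members and ranged from -4.996 to 3.05. With limma's test against a 2-fold distance, adjusted over all 5192 genes, 23 members (14.02%) lay above the median gene and 40 (24.4%) below, against 23.1% and 21.0% of all tested genes and 19.6% and 18.6% of eligible genes. The highest levels were those of Kwal_33.13869 at 3.05 ± 0.12 (limma, adjusted p = 1.49e-09), Kwal_47.16642 at 2.99 ± 0.08 (limma, adjusted p = 1.68e-09) and Kwal_33.14675 at 2.56 ± 0.06 (SD, n = 4; limma, adjusted p = 6.28e-09). The lowest were Kwal_22.2752 at -4.996 ± 0.21 (limma, adjusted p = 4.4e-10), Kwal_8.596 at -3.85 ± 0.19 (limma, adjusted p = 2.13e-09) and Kwal_23.3852 at -3.54 ± 0.10 (SD, n = 4; limma, adjusted p = 2.4e-09). In these genes both probes read more genomic DNA than the median probe, which lowers the ratio. On the log2 scale it lay 1.52 and 1.70 above in Kwal_22.2752, 1.17 and 1.04 in Kwal_8.596 and 0.55 and 1.11 in Kwal_23.3852. Both probes of Kwal_22.2752 are also identical to probes of Kwal_55.22252, so its readings cannot be assigned to this gene alone. Its lower probe had an RNA signal of only 77 to 147 units. The call depended on which probe was read, which the choice of members by wide gaps largely builds in, so the next counts are a description. With the higher probe of every gene alone 35 members lay above and 21 below, and with the lower probe alone 14 lay above and 67 below. These counts were taken over members alone, so it is not known how far they differ from those of all genes. When the eligible genes were divided by level into 5 classes of about equal size, members made up 6.41%, 5.79%, 4.38%, 5.32% and 3.75% of them from the lowest class to the highest.

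Probes of members were also read against the median probe, with the values that chose them, so that the counts are a description. By limma's test against a 2-fold distance, 0 members had probes on opposite sides of the median probe, and 0 at an unadjusted p under 0.05, against 3 of 4939 genes with 2 used probes (0.0607%). Such a call needs a gap over 2, which only 8 members had, so the count follows largely from the rule and nothing is read from it. Those 3 genes were Kwal_47.17596 and Kwal_34.15831, whose probes overlap by 9 and 40 bases and which had gaps of 4.29 and 3.94, and Kwal_33.14884, with a gap of 2.50, which the filter on dim probes removed. Without a bound, probes on opposite sides were counted in members alone, and 42 members had them, so nothing is read from this count. By their means alone, the higher probe lay above 0 and the lower below 0 in 55 members (33.5%), against 11.98% of all eligible genes.

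The gaps held in direction under most ways of processing the signals, which the choice of wide gaps in the same signals largely builds in. All 164 kept the same probe higher with no background subtracted, with mean pixel signals and with trends of GC content, base counts or array position removed, and 153, 159, 150, 121 and 110 of them stayed over 1 in that order of settings. With the log ratio of the scanner software 7 members changed sign and 97 stayed over 1. After loess within arrays 22 changed sign and 89 stayed over 1. With normexp 1 changed sign and 144 stayed over 1, and with RNA alone 10 changed sign and 62 stayed over 1.

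**Figure D5:**
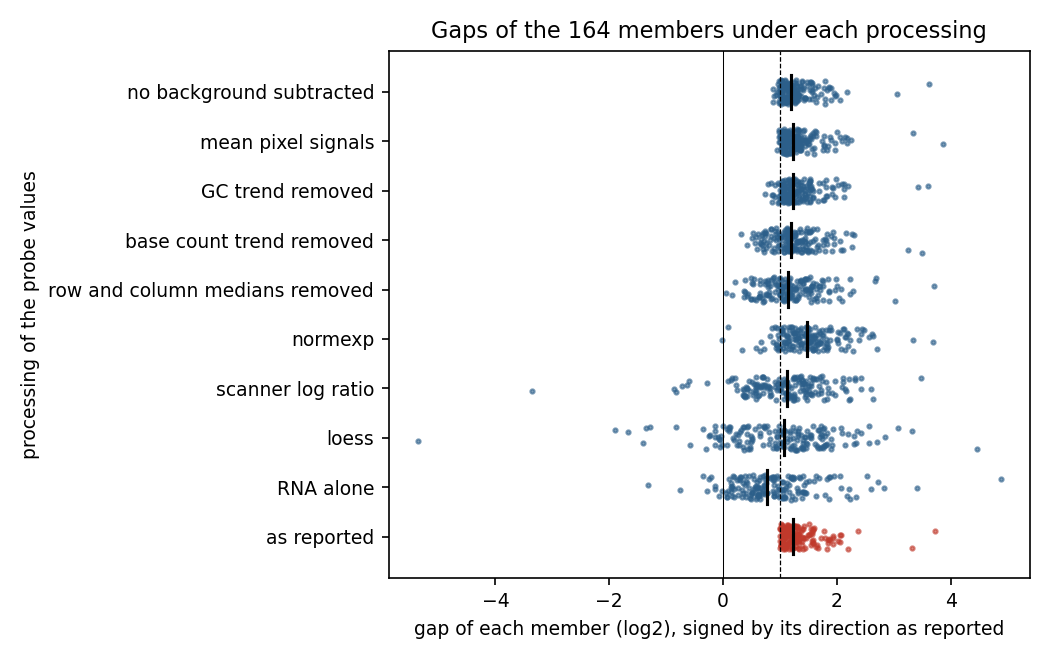
Gap of each of the 164 members (dots; x axis, log2, positive where the probe order is as reported) under 9 ways of processing and as reported (red), with the median as a black bar; the solid line marks 0 and the dashed line 1. The medians lie between 0.77 with RNA alone and 1.47 with normexp, and the dots left of 0 belong to the scanner log ratio, loess and RNA alone, with 1 member just below 0 under normexp.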

How the data were processed

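The deposited scanner files hold spot intensity values (median and mean pixel intensity and local background in both channels) that the authors extracted with Agilent Feature Extraction, version 10.1.1.1 per the file headers. A log10 ratio of Cy5 over Cy3, deposited beside them, came from the same software; its sign was turned here. The deposited table of processed gene values (4 columns) was not used. The intensity of 10386 probes was background-subtracted, divided (RNA over genomic DNA), put on the log2 scale and centred as in the rule. Gene levels were the median over the 10131 used probes, quantile normalised and tested with limma 3.58.1 in R 4.3.3 (intercept alone, treat with a log2 bound of 1, two-sided, Benjamini-Hochberg over all genes or all probes at 0.05). The SD given with a gene level is that of levels centred on the array median without quantile normalisation. Melting temperatures came from Biopython and folding energies from ViennaRNA with DNA parameters. The steps were tested on simulated data. Members, lists and tests were chosen with earlier results of these data known. Named genes followed a rule: the widest gaps, genes next to the limit, and the extremes of the genomic DNA difference, gene level and SD; others are marked. Alternatives were other background corrections, normalizations, filters, limits, trends and arrays left out; the base count trend, the local background outlier filter and the order by probe number were added after the data were seen. Probe sequences, gene functions and coordinates are not given here.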

Additional observations from a re-analysis of the deposited data

Results flagged for a closer look

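Over the 4 arrays, 1 of 36 results (the gaps of the named genes and the 3 medians over members) had an array set apart from the others, and chance flags about 1 in 20. The gap of Kwal_47.16642 was 1.35 on array 3, against 0.98, 0.91 and 0.99 on arrays 1, 2 and 4. Over all 164 members, 7 gaps (4.27%) were set apart in this way, on array 1 in 1 member and on arrays 2, 3 and 4 in 2 members each.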

How the results depend on the processing

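The number of genes with separate probes over 2-fold apart was 375 with normexp, 389 with the scanner log ratio, 661 after loess and 294 with row and column medians removed, of which 144, 98, 95 and 110 were among the 164, counting gaps over 1 in either direction; it was 8 at a 4-fold limit and 92 with the gap over 1 on each array. Leaving out an array gave 168 to 172. Members above the median gene numbered 62 against a bound of 0, 4 at a 4-fold bound, 5 with the scanner log ratio, 3 after loess, 35 and 14 with the higher and the lower probe alone, and 21 to 22 with an array left out. Members below numbered 88, 12, 25, 18, 21 and 67 in the same order, and 40 to 42 with an array left out. Members with probes on opposite sides numbered 42 against a bound of 0, and 0 with any array left out. Under these settings the counts above, below and on opposite sides were taken over members alone, with no share of all genes. The median gap was 1.47 with normexp, 1.14 with row and column medians removed, 1.13 with the scanner log ratio and 1.06 after loess, and 1.20 to 1.23 with an array left out. The median RNA difference was 0.89 with the GC trend and 0.64 with row and column medians removed (0.78 to 0.82 with an array left out), and that in genomic DNA -0.73 with normexp and -0.41 with the base count trend removed (-0.53 to -0.48). The share of members whose higher probe was more GC-rich was 31.1% with the scanner log ratio and 32.9% with RNA alone. The share whose first-numbered probe was higher was 76.8% with normexp, 78.0% with the scanner log ratio, 72.6% after loess, 71.3% with RNA alone and 76.2% with any array left out.

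The gap changed sign after loess in Kwal_55.19953 (-0.068), Kwal_23.5643 (-0.095) and Kwal_27.10384 (-0.34). With the scanner log ratio and after loess it was -3.36 and -5.36 in Kwal_27.11215, -0.87 and -1.66 in Kwal_23.4610, -0.72 and -1.41 in Kwal_23.6014, and -0.82 and -1.89 in Kwal_26.9328, and with normexp it was -0.014 in Kwal_23.4610. It was also negative in Kwal_47.17664 (-0.59 and -1.35) and Kwal_5.492 (-0.63 and -1.28) under the same settings, and in Kwal_26.7403 after loess (-0.14). With RNA alone the mean order of the probes was opposite in 10 members. Those of them named here were Kwal_14.1915 (-1.31), Kwal_56.22583 (-0.76), Kwal_23.3268 (-0.25) and Kwal_34.16200 (-0.15), the last by less than its SD of 0.37. The cause was not tested. No paired analysis was possible because the 4 arrays form 1 group. Lower probes of members had RNA signals down to a mean of 93.5 units, which limits the precision of their ratios.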

Other observations

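Members occurred in 14 groups of identifiers (the number before the point). In the 8 groups with at least 100 eligible genes, members made up 2.87% to 7.23%. Smaller groups varied more, and many held no member. Members were 7 of 82 eligible genes (8.54%) in group 34, 1 of 52 (1.92%) in group 0 and 1 of 7 in group 8. In groups 22, 5 and 9 the only eligible gene was a member. In 4 cases members had neighbouring identifiers on the array, and these were named after their values were seen. Kwal_26.7403 and Kwal_26.7406 had gaps of 1.13 ± 0.20 and 3.72 ± 0.41, and Kwal_23.3042 and Kwal_23.3047 of 1.28 ± 0.20 and 1.84 ± 0.18. Kwal_33.13713 and Kwal_33.13718 had gaps of 1.58 ± 0.10 and 1.32 ± 0.08, and Kwal_27.12821 and Kwal_27.12832 of 1.58 ± 0.06 and 1.45 ± 0.05 (SD, n = 4 for each). In the pair Kwal_23.3042 and Kwal_23.3047 the genomic DNA differences were -1.14 and -1.22, and in Kwal_33.13713 and Kwal_33.13718 they were -0.93 and -0.82. The mean gap over arrays 1 and 3 differed from that over arrays 2 and 4 by more than 0.5 in 3 of 164 members. These were Kwal_55.21143, Kwal_55.20976 and Kwal_47.19146. The same held in 31 of 3197 eligible genes.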
